A study of Mus musculus with 19 samples.

Results

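The hippocampal RNA of 8 mice that carry the APP/PS1 amyloid transgenes was compared, the 4 carriers with the most Cst7 transcript (Cst7-high) against the 4 with the least (Cst7-low). These 8 were chosen by their measured Cst7 level among the 9 carriers of a series of 19 mice, and the remaining carrier, of rank 5, is given beside them. The carriers were 4 APP/PS1 A2A mice and 5 APP/PS1 mice, heterozygous for APPswe/PS1dE9, and the APP/PS1 A2A mice also held a Tet-responsive cDNA, of optimised sequence, for the mouse adenosine A2A receptor. The 10 non-carriers were 5 A2A mice, with that receptor transgene and no amyloid transgene, and 5 WT mice. All 19 mice, the WT included, were females that had received an AAV vector encoding the tTA transactivator in the CA1 of both dorsal hippocampi at 3 months of age and were killed at 6 months. The vector drives tTA from the CBA promoter, so the receptor transgene can be switched on only in transduced cells. Each mouse gave 1 library, and the mice are numbered within their genotype.

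Cst7 encodes cystatin F, an inhibitor of lysosomal cysteine proteases that in the brain is made by microglia. Microglia that surround amyloid deposits lower part of their resting programme and switch on a set of surface receptors, lipid handling genes and lysosomal genes, first in a step that does not need the receptor TREM2 and then in a step that does. Cst7, Itgax and Clec7a belong to the later step and are close to silent in a brain without amyloid.

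Cst7 (ENSMUSG00000068129, chr2:150570415-150578944 in mm10) had 11.2, 10.05, 7.82 and 6.503 CPM (each count divided by its library's total, times a constant) in the Cst7-high mice, which were APP/PS1 mouse 1, APP/PS1 A2A mouse 1, APP/PS1 mouse 3 and APP/PS1 A2A mouse 4. The Cst7-low mice, APP/PS1 A2A mouse 2, APP/PS1 A2A mouse 3, APP/PS1 mouse 2 and APP/PS1 mouse 4, had 5.75, 5.35, 4.83 and 1.69 CPM. Each side thus held 2 mice of each carrier genotype. The last mouse inside the upper limit had 6.503 CPM (95% Poisson interval 5.80 to 7.27), APP/PS1 mouse 5, outside both limits, had 6.17 CPM (5.50 to 6.90) and the first mouse inside the lower limit had 5.75 CPM (5.13 to 6.43). These 3 intervals, which cover counting error only, overlapped, so the border between the sides was not resolved by the counts. APP/PS1 mouse 4 stood below the other carriers and above every non-carrier, of which the highest had 0.483 CPM.

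**Figure D1:**
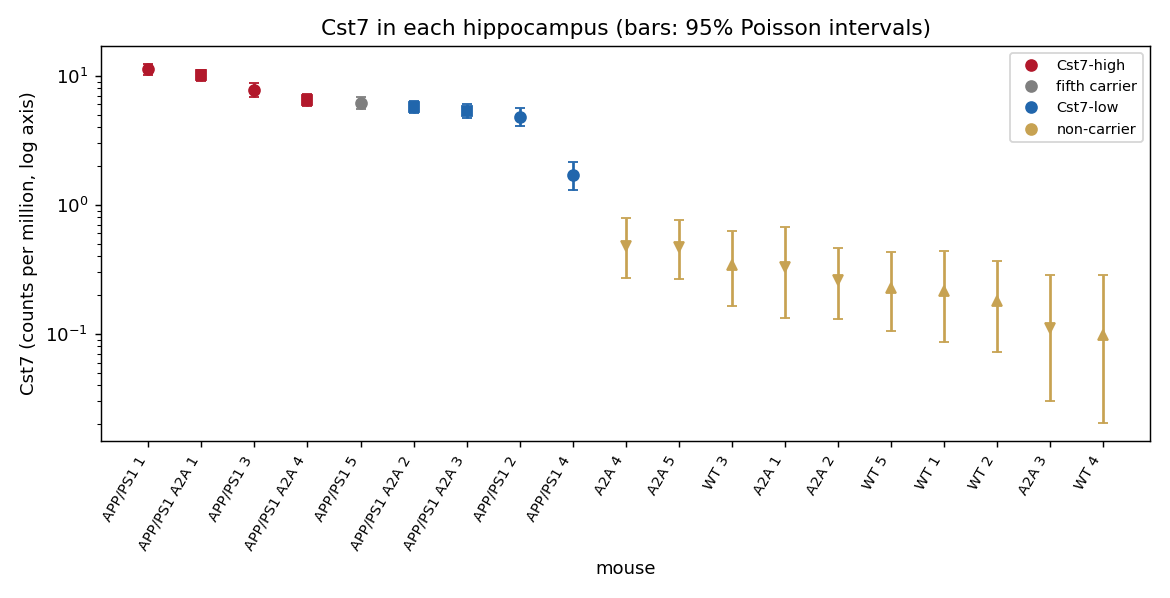
Cst7 in each of the 19 mice, in CPM on a log axis, with 95% Poisson intervals. Circles are APP/PS1 mice, squares APP/PS1 A2A mice, triangles WT mice (point up) and A2A mice (point down). The 4 Cst7-high mice lie between 6.503 and 11.2 CPM, the 4 Cst7-low mice between 1.69 and 5.75 CPM, and the 10 non-carriers between 0.0986 and 0.483 CPM.

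Comparisons of the labelled groups did not use the ranking, but they used the same Cst7 values. The authors had named Cst7 among the genes higher in APP/PS1 than in WT mice of this series. The comparison of carriers with non-carriers thus describes a known rise and is no separate evidence of it. Cst7 averaged 6.60 ± 2.84 CPM in carriers (SD, n = 9) and 0.271 ± 0.134 CPM in non-carriers (SD, n = 10), with an exact two-sided permutation p = 2.17e-05, the smallest these numbers of mice can give. It averaged 6.92 ± 2.15 CPM in APP/PS1 A2A mice (SD, n = 4) and 6.34 ± 3.53 CPM in APP/PS1 mice (SD, n = 5), a difference of 0.572 CPM with an exact two-sided permutation p = 0.825. That difference was smaller than the spread within either genotype, and it turned to -0.475 CPM without APP/PS1 A2A mouse 1 and to -0.590 CPM without APP/PS1 mouse 4.

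Column totals ran over 30955610 to 47360875 counts in Cst7-high mice, 30251406 to 53717373 in Cst7-low mice and 21305902 to 42122245 in non-carriers. Markers of hippocampal tissue were present in every library, but so were transcripts of the choroid plexus, the secretory epithelium of the ventricles, whose 10 listed genes summed to 62.5 to 2703 CPM in Cst7-high mice, 2252 to 10520 CPM in Cst7-low mice and 123 to 8394 CPM in non-carriers. Adora2a, the receptor of the second transgene, had 10.4, 1.94, 1.24 and 1.499 CPM in APP/PS1 A2A mice 1, 2, 3 and 4, against 1.16 to 1.91 CPM in APP/PS1 mice and 0.850 to 9.62 CPM in non-carriers. Among carriers only APP/PS1 A2A mouse 1 thus stood apart. The transgene carries an optimised sequence that differs from the endogenous gene, and how many of its reads the Adora2a counts hold was not tested. APP/PS1 A2A mouse 1 had 161 CPM over the striatal markers, within the 93.9 to 178 CPM of the non-carriers. APP/PS1 A2A mice 2, 3 and 4 had less, at 113, 105 and 81.3 CPM. The striatal list holds Adora2a itself, so its sum and the Adora2a level are not separate measures. The part of striatal tissue in the Adora2a level was not tested.

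Because the mice were selected on a level measured in the same libraries, the genes that follow are described between the sides with no test. A gene is called higher or lower without overlap where every Cst7-high mouse lay above, or below, every Cst7-low mouse in CPM, and the size of a difference is the mean of log2(CPM + 0.1) in Cst7-high mice minus that in Cst7-low mice. Of 16302 genes with a mean of at least 0.5 CPM over the carriers, 1106 (6.78%) were higher without overlap and 639 (3.92%) were lower. The median difference over all these genes was 0.03, and 55.5% of them were positive. The counts of each gene list below are to be read beside these shares. Differences on the higher side were small, with 32 genes above 1 on the log2 scale and 0 above 2. On the lower side 156 genes were below -1 and 50 below -2. In whole hippocampus, fewer cells of a type and less RNA per cell cannot be told apart.

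A separate question is which genes the amyloid transgenes changed, and it was tested on the labels of all 19 mice. By edgeR's quasi-likelihood test, 34 of 18529 genes rose in carriers over non-carriers (0.183%) and 1 gene fell (0.0054%) with an adjusted p (Benjamini-Hochberg) below 0.05 and an absolute log2 fold change above 0.32. Cst7 rose by 4.65 on the log2 scale (SE 0.33, adjusted p = 7.68e-08). The gene that fell was Cort, which encodes the interneuron peptide cortistatin, with a log2 fold change of -1.05 (SE 0.16, adjusted p = 0.00404). The carriers enter both this test and the ranking, so the pair of comparisons is not independent.

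Of the 34 genes that rose, 31 passed the CPM minimum among carriers. When Cst7 and the 4 genes of the transgene cassette and its promoter locus were set aside, 26 remained, of which 25 had a positive difference between the sides and 9 were higher without overlap, with a median of 0.45. The 9 were Itgax, Trem2, Tyrobp, Ccl6, C4b, Cd68, St14, Gm8995 and Ptprc. Among both genotypes taken apart, with the pair of Cst7-high mice set against the pair of Cst7-low mice in each, 11 of the 26 kept the sides separate, against 10.8% of all genes compared under that looser rule. After each gene's slope on the choroid plexus sum, fitted in the non-carriers, was subtracted, the median was 0.47 and 26 of 26 differences were positive, a correction chosen after the data were seen.

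APP/PS1 mouse 4 was the lowest carrier for 20 of these 26 genes, and APP/PS1 A2A mouse 1 was the highest for 17. The 4 Cst7-high mice exceeded every non-carrier in 25, 25, 26 and 25 of the 26 genes, in order of their Cst7 level. The Cst7-low mice did so in 25, 22, 22 and 9 genes, the 9 being those of APP/PS1 mouse 4. The 26 genes were called on these same mice, so the counts describe the mice and are no further evidence of the change.

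**Figure D2:**
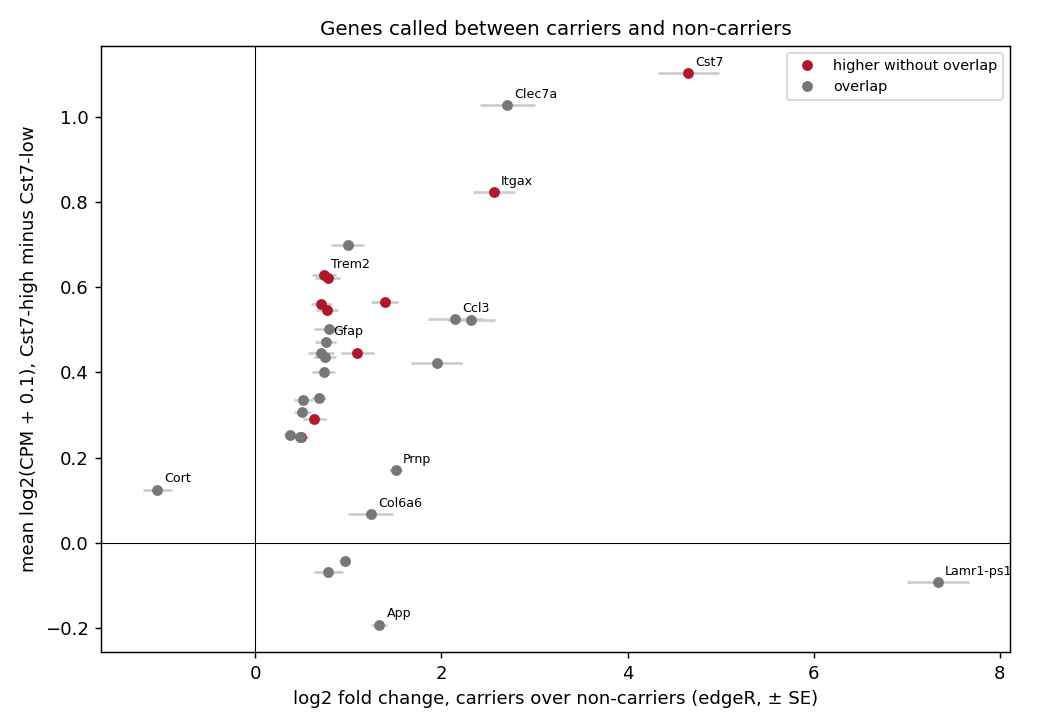
Genes called between carriers and non-carriers that passed the CPM minimum. The horizontal axis is the edgeR log2 fold change with its SE, the vertical axis the difference of mean log2(CPM + 0.1) between Cst7-high and Cst7-low mice. Red points were higher without overlap. Cst7, which set the ranking, lies highest at 1.103 and Clec7a next at 1.03, while App lies at -0.19 and Lamr1-ps1 at -0.09.

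Among genes of the later, TREM2-dependent step, Clec7a, the receptor dectin-1 that binds beta-glucans, had 6.34, 6.33, 6.07 and 3.88 CPM in Cst7-high mice, against 3.98, 2.76, 3.14 and 1.45 CPM in Cst7-low mice. APP/PS1 mouse 5 had 3.30 CPM and the non-carriers 0.307 to 1.16 CPM. Clec7a differed by 1.03 between the sides, next to 1.103 for Cst7, although APP/PS1 A2A mouse 4 fell just under APP/PS1 A2A mouse 2. In carriers over non-carriers Clec7a rose by 2.71 (SE 0.29, edgeR adjusted p = 6.08e-05).

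Itgax, the integrin alpha chain that marks dendritic cells and plaque microglia, had 2.91, 3.07, 2.46 and 2.13 CPM in Cst7-high mice, against 1.68, 1.95, 1.69 and 0.753 CPM in Cst7-low mice. The sides did not overlap, and the difference was 0.83. Ccl6, a chemokine, had 5.49, 6.36, 5.30 and 4.67 CPM in Cst7-high mice, against 4.23, 3.89, 4.03 and 2.61 CPM in Cst7-low mice. Cd68, a lysosomal membrane protein of phagocytes, had 17.7, 21.0, 17.4 and 15.0 CPM in Cst7-high mice, against 14.1, 13.4, 12.9 and 8.60 CPM in Cst7-low mice. Both separated the sides, with differences of 0.57 and 0.55. Cd52, a small surface glycoprotein of leukocytes, was spread more widely, with 4.50, 6.00, 4.26 and 3.00 CPM in Cst7-high mice, against 2.98, 2.41, 3.37 and 1.94 CPM in Cst7-low mice.

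Other genes of that step did not follow the ranking. Cst7 itself set aside, 15 of the 24 measured members of that list were positive, 3 were higher without overlap and 1 was lower, with a median of 0.18. That median was 0.09 without APP/PS1 A2A mouse 1, 0.11 without APP/PS1 mouse 1 and 0.10 without APP/PS1 mouse 3. Timp2, an inhibitor of metalloproteinases, was the member lower without overlap, with 224, 156, 345 and 328 CPM in Cst7-high mice, against 354, 379, 424 and 365 CPM in Cst7-low mice. Lpl, which encodes lipoprotein lipase, had 71.0, 70.8, 46.9 and 101 CPM in Cst7-high mice, against 97.9, 93.6, 56.8 and 78.8 CPM in Cst7-low mice. Spp1, the secreted protein osteopontin, had 7.13, 5.89, 22.1 and 8.49 CPM in Cst7-high mice, against 6.497, 5.04, 8.56 and 14.7 CPM in Cst7-low mice. Timp2, Lpl and Spp1 are also made outside microglia, and the part of other cells in their levels was not tested. None of the 3 rose in carriers by the edgeR test. In that test 6 of the 24 members rose and 0 fell.

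The earlier step holds genes that microglia already express at rest. Trem2, the receptor for lipids and apolipoproteins, had 37.0, 37.8, 32.4 and 26.1 CPM in Cst7-high mice, against 25.5, 23.9, 22.4 and 15.0 CPM in Cst7-low mice. Tyrobp, its signalling adaptor, had 34.0, 38.6, 36.4 and 24.2 CPM in Cst7-high mice, against 24.1, 23.2, 22.9 and 16.0 CPM in Cst7-low mice. The sides met but did not overlap for either gene, and the value of APP/PS1 mouse 4 lay inside the non-carrier range of both, 13.4 to 19.9 CPM for Trem2 and 13.6 to 20.5 CPM for Tyrobp. The other members differed less, Lyz2, a lysozyme, by 0.42 and B2m, the light chain of MHC class I, by 0.24, each with overlap. All 8 members were positive, with 2 higher without overlap and a median of 0.22, which was 0.14 without APP/PS1 A2A mouse 1. In carriers over non-carriers Trem2 and Tyrobp rose and the other 6 did not pass the test.

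**Figure D3:**
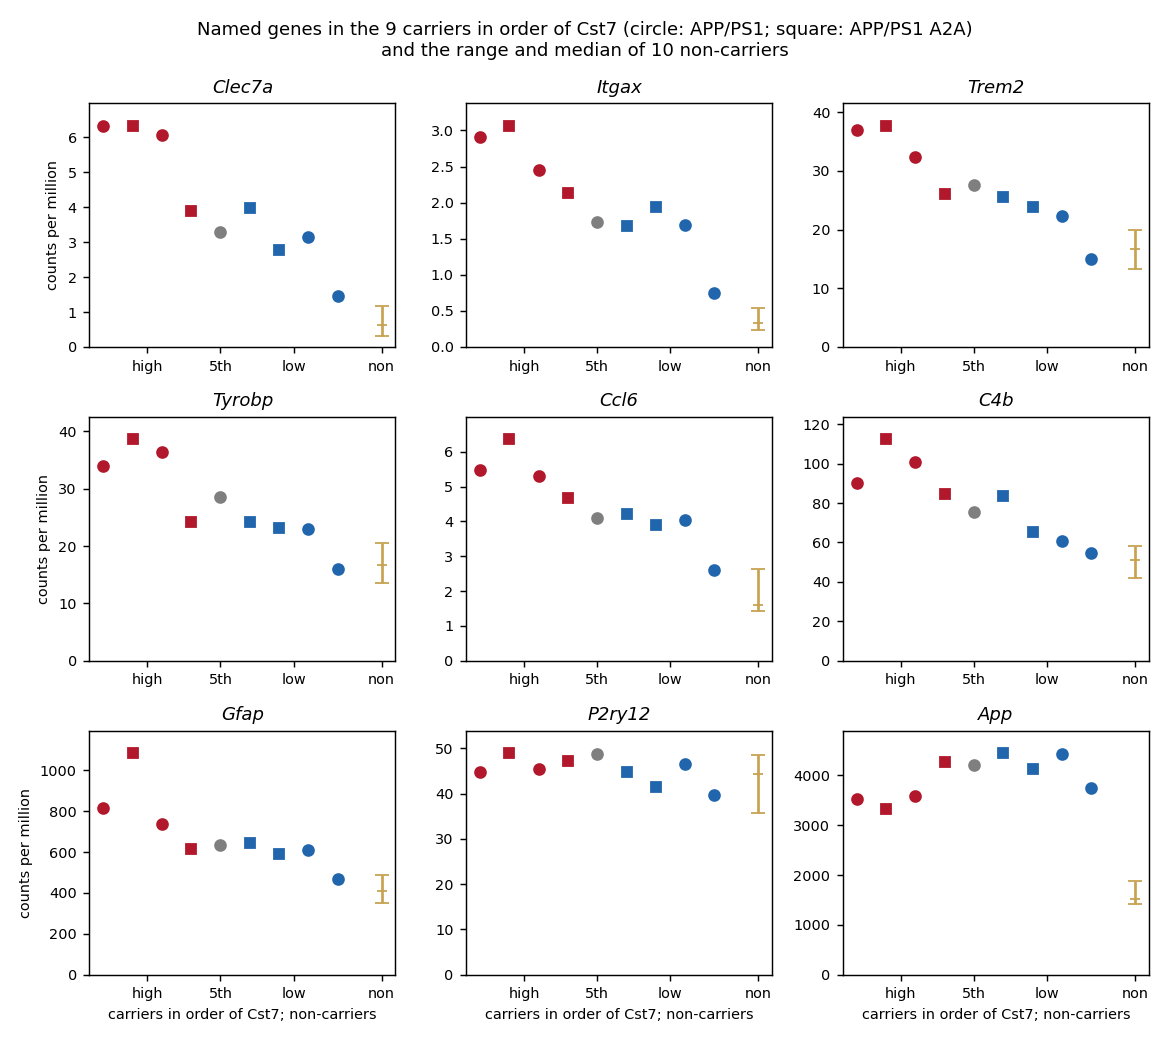
CPM of 9 genes in the carriers, ordered from most to least Cst7, with the 4 Cst7-high mice in red, APP/PS1 mouse 5 in grey and the 4 Cst7-low mice in blue. Bars at the right give the range and median of the 10 non-carriers. Clec7a spans 6.34 to 1.45 CPM along the ranking, whereas App is 3318 to 4276 CPM in Cst7-high mice and 3752 to 4446 CPM in Cst7-low mice.

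PU.1, encoded by Spi1, is the transcription factor that defines the myeloid lineage, and many but not all of its sites contain the letters GAGGAA. Those letters, read on both strands, were searched in RefSeq promoter windows of build GRCm38.p6 that run from 250 bases before to 50 bases after a gene's start. A match by symbol was found for 818 of the 1106 genes higher without overlap. The letters occurred in the windows of 32.5% of these genes, of 30.3% of the genes compared that had a window and of 31.3% of all genes in the collection. Among genes higher without overlap in the myeloid lists, with Cst7 and without C4b, 8 of 15 with a window held them (53.3%). This count is given as a description, since these genes were picked by their values. The E-box letters CACGTG, read by MITF and TFEB, occurred in 11.2% of the genes higher without overlap, in 11.2% of the genes compared and in 8.09% of all genes. CATGTG occurred in 13.1% of the genes higher without overlap, in 10.5% of the genes compared and in 15.9% of all genes. The 100 bases before the start are shown for Cst7 and for 3 microglial genes that were higher without overlap and hold the letters. GAGGAA or its reverse complement TTCCTC is in capitals.
Cst7, chr2:150570315-150570414, plus strand: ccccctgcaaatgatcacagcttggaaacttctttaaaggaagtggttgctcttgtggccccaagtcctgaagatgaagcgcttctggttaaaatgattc
Trem2, chr17:48346301-48346400, plus strand: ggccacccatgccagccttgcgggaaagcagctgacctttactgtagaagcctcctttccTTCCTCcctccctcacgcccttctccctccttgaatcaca
Laptm5, chr4:130913216-130913315, plus strand: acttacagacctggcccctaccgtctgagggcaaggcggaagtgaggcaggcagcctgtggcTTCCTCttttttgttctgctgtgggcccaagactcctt
Itgam, chr7:128062540-128062639, plus strand: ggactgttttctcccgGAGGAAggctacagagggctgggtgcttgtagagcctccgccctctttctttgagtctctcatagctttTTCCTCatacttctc
The match began 40 bases before the start in Trem2 and 38 bases before it in Laptm5, and Itgam held matches that began 84 and 15 bases before it. These 6 letters were not in the stretch of Cst7. A match, or the lack of one, is a description of these letters and not of a bound site.

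Genes of resting microglia were higher on the same side as the plaque genes. Of 20 homeostatic genes 19 were positive and 3 were higher without overlap, with a median of 0.26, and 0 of the 20 were called in either direction in carriers over non-carriers. Csf1r, the receptor that keeps microglia alive, had 123, 143, 132 and 129 CPM in Cst7-high mice, against 120, 112, 106 and 87.5 CPM in Cst7-low mice. Olfml3, a secreted microglial protein, differed by 0.37 and Siglech, a sialic acid receptor, by 0.29, both without overlap. P2ry12, the ADP receptor of resting microglia, had 44.8, 48.9, 45.4 and 47.2 CPM in Cst7-high mice, against 44.9, 41.4, 46.6 and 39.6 CPM in Cst7-low mice, a difference of 0.11 with overlap. The only negative member was Ltc4s, leukotriene C4 synthase, at -0.65.

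General myeloid genes followed the same order. Of 27 measured members of the list of surface and signalling genes 25 were positive and 6 were higher without overlap, with a median of 0.31. Laptm5, a lysosomal membrane protein of haematopoietic cells, had 53.5, 62.0, 53.0 and 44.0 CPM in Cst7-high mice, against 38.9, 38.4, 33.4 and 28.2 CPM in Cst7-low mice. Plcg2, a phospholipase downstream of TREM2, had 9.56, 9.67, 8.56 and 8.57 CPM in Cst7-high mice, against 6.05, 5.90, 6.58 and 5.27 CPM in Cst7-low mice. Both left a clear gap between the sides, while neither was called in carriers over non-carriers. Aif1, which encodes IBA1, had 8.09, 9.42, 8.88 and 6.69 CPM in Cst7-high mice, against 6.94, 5.72, 5.95 and 3.90 CPM in Cst7-low mice. The edgeR test called 8 of 29 members of this list as risen in carriers, among them Mpeg1, a pore-forming protein of phagocytes, by 0.69 (SE 0.08, adjusted p = 0.000121).

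The pattern-recognition and Fc receptors held 13 measured members, of which 12 were positive, against 55.5% of all genes, with a median of 0.28. A single member was higher without overlap, against 6.78% of all genes. That member was Tlr1, a receptor for bacterial lipopeptides, with 1.39, 1.75, 1.20 and 1.29 CPM in Cst7-high mice, against 1.005, 0.730, 0.496 and 0.591 CPM in Cst7-low mice. Fcer1g, the common gamma chain of Fc receptors, had 10.8, 13.3, 11.4 and 7.43 CPM in Cst7-high mice, against 7.73, 7.34, 7.14 and 5.67 CPM in Cst7-low mice. Its sides overlapped by 1 pair of mice only. Of the 14 members tested in carriers over non-carriers 0 were called.

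Complement and chemokine genes were again mostly on the higher side. Of 10 complement genes 9 were positive, with a median of 0.39, which was 0.25 without either APP/PS1 A2A mouse 1 or APP/PS1 mouse 3. C4b, a component of the classical pathway, which reactive astrocytes and oligodendrocytes also make, had 90.1, 112, 101 and 84.3 CPM in Cst7-high mice, against 83.6, 65.2, 60.8 and 54.8 CPM in Cst7-low mice. It was the only member of the 10 higher without overlap, against 6.78% of all genes. It rose in carriers by 0.71 (SE 0.11, edgeR adjusted p = 0.00467), though C4b has a near-identical neighbour, C4a, between which reads may be split. C1qb, a chain of the first component, had 68.0, 105, 73.4 and 57.3 CPM in Cst7-high mice, against 61.6, 50.5, 53.9 and 40.8 CPM in Cst7-low mice. C3, the central component, went the other way at -1.09, with 1.98, 0.603, 0.937 and 3.63 CPM in Cst7-high mice, against 7.48, 1.81, 1.26 and 5.89 CPM in Cst7-low mice. C3 is also a gene of barrier tissue. Its difference was still negative, at -0.36, after the choroid plexus slope was subtracted, and the part of barrier tissue in its level was not tested.

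All 9 measured chemokines and cytokines were positive, against 55.5% of all genes, with a median of 0.47. A single member was higher without overlap, against 6.78% of all genes. That member was Tgfb1, the cytokine on which microglial identity depends, with 4.16, 4.03, 4.59 and 3.02 CPM in Cst7-high mice, against 2.66, 2.83, 2.74 and 2.28 CPM in Cst7-low mice. Ccl3, a chemokine that rose in carriers by 2.15 (SE 0.29, edgeR adjusted p = 0.00121), had 1.56, 2.44, 1.58 and 1.18 CPM in Cst7-high mice, against 1.68, 1.105, 1.02 and 0.780 CPM in Cst7-low mice. One mouse weighed on this list. APP/PS1 A2A mouse 1 had 4.30 CPM of Cxcl10, an interferon-induced chemokine, against 0.311 to 0.904 CPM in the other Cst7-high mice and 0.430 to 0.912 CPM in Cst7-low mice, and the list median was 0.23 without that mouse.

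Type I interferon genes were 23 positive of 26, with 1 higher without overlap, against 55.5% and 6.78% of all genes. Their median was 0.34, which was 0.16 without APP/PS1 A2A mouse 1 and 0.20 without APP/PS1 mouse 3. Irf7, the factor that amplifies the response, had 2.97, 6.77, 5.17 and 3.10 CPM in Cst7-high mice, against 3.31, 2.63, 1.29 and 3.12 CPM in Cst7-low mice. Usp18, which restrains interferon signalling, had 1.22, 4.0, 3.17 and 1.54 CPM in Cst7-high mice, against 1.79, 0.884, 0.992 and 1.42 CPM in Cst7-low mice. The whole list summed to 240.7 CPM in APP/PS1 A2A mouse 1 and 224.4 CPM in APP/PS1 mouse 3. It summed to 143.1 CPM in APP/PS1 mouse 1, which had the most Cst7, and to 180.9 CPM in APP/PS1 mouse 4, which had the least. In carriers over non-carriers 0 of the 26 genes were called.

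Antigen presentation was divided by class. Of the 12 measured genes 8 were positive, with a median of 0.12 that turned to -0.05 without APP/PS1 mouse 3 and was 0.03 without APP/PS1 A2A mouse 1 and 0.18 without APP/PS1 mouse 4. H2-M3, a nonclassical class I gene, was the only member higher without overlap, at 0.43, against 6.78% of all genes. The immunoproteasome subunit Psmb9 differed by 0.67 with overlap. The class II genes H2-Aa, H2-Ab1 and H2-Eb1 and the invariant chain Cd74 were negative, between -0.78 and -0.52, and highest in APP/PS1 mouse 4. H2-Aa had 1.97 to 5.395 CPM in Cst7-high mice, against 3.04 to 9.41 CPM in Cst7-low mice. With the choroid plexus slope subtracted these 4 genes were positive, between 0.28 and 0.51. The part of choroid plexus or border tissue in their levels was not tested.

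Lysosomal genes were split evenly, with 8 of 17 members positive, a median of -0.01 that ran from -0.07 to 0.04 with 1 carrier left out, 0 higher without overlap and 1 lower. Lipa, lysosomal acid lipase, was the lower one, with 21.4, 20.1, 23.7 and 23.6 CPM in Cst7-high mice, against 28.2, 28.9, 28.7 and 34.5 CPM in Cst7-low mice. Ctss, the microglial cathepsin S, had 101, 144, 112 and 99.8 CPM in Cst7-high mice, against 108, 91.1, 93.4 and 78.5 CPM in Cst7-low mice. Apoe, the main lipid carrier of the brain and a member of the earlier plaque step, had 1407, 1071, 1532 and 940 CPM in Cst7-high mice, against 1040, 989, 1414 and 1270 CPM in Cst7-low mice. Neither Ctss nor Apoe separated the sides.

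Astrocytes become reactive around plaques and raise the filament protein GFAP. Gfap had 814, 1084, 735 and 614 CPM in Cst7-high mice, against 644, 589, 610 and 466 CPM in Cst7-low mice. It rose in carriers by 0.76 (SE 0.11, edgeR adjusted p = 0.00404), and between the sides it differed by 0.47, with APP/PS1 A2A mouse 4 under APP/PS1 A2A mouse 2. Of 12 measured genes of reactive astrocytes 8 were positive and 3 were higher without overlap, with a median of 0.15. One mouse decided the sign of that median, which was -0.01 without APP/PS1 A2A mouse 1, 0.09 without APP/PS1 mouse 1, 0.27 without APP/PS1 A2A mouse 2 and 0.29 without APP/PS1 mouse 4. Osmr, the oncostatin M receptor, had 9.22, 12.0, 12.3 and 9.52 CPM in Cst7-high mice, against 7.35, 8.13, 7.47 and 5.05 CPM in Cst7-low mice. Aspg, an asparaginase, had 5.74, 8.77, 9.43 and 5.95 CPM in Cst7-high mice, against 4.13, 5.04, 4.43 and 3.98 CPM in Cst7-low mice. Both separated the sides, as C4b did. Serpina3n, a secreted protease inhibitor of reactive astrocytes, did not, with 61.5, 88.4, 34.9 and 76.8 CPM in Cst7-high mice, against 68.4, 89.0, 42.2 and 61.8 CPM in Cst7-low mice. Of the 11 genes of resting astrocytes 9 were positive and 0 lay apart, with a median of 0.10 that fell to between 0.002 and 0.04 without APP/PS1 A2A mouse 1, APP/PS1 mouse 1 or APP/PS1 mouse 3.

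App, a product of the amyloid transgenes, did not separate the sides. App had 3517, 3318, 3577 and 4276 CPM in Cst7-high mice, against 4446, 4122, 4435 and 3752 CPM in Cst7-low mice. These counts hold both the endogenous transcript and those transgene reads that align to the mouse gene, and each carrier lay above each non-carrier, of which the highest had 1889 CPM of App. Prnp, the prion protein gene whose promoter drives the transgenes, had 3399, 3472, 3186 and 3062 CPM in Cst7-high mice, against 2997, 3124, 3199 and 2389 CPM in Cst7-low mice. Lamr1-ps1, a processed pseudogene beside Prnp on chromosome 2, had 17.9, 14.6, 17.4 and 18.1 CPM in Cst7-high mice, against 19.1, 21.1, 17.1 and 15.5 CPM in Cst7-low mice. The differences of App, Prnp and Lamr1-ps1 lay between -0.19 and 0.17. APP/PS1 mouse 4, with the least Cst7, had the lowest Prnp of the carriers, and lay within the range of the other carriers for App and Lamr1-ps1. The amount of deposited amyloid was not measured in these libraries.

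Outside glia, endothelial genes were higher in Cst7-high mice, all 10 being positive with 3 higher without overlap and a median of 0.71, which was 0.46 without APP/PS1 mouse 2. Pecam1, an adhesion molecule of endothelial junctions, had 17.4, 23.1, 26.2 and 18.2 CPM in Cst7-high mice, against 10.3, 15.6, 9.75 and 12.9 CPM in Cst7-low mice. Cldn5, the claudin of the blood-brain barrier, had 21.6, 21.6, 30.5 and 13.7 CPM in Cst7-high mice, against 7.52, 18.0, 10.8 and 10.4 CPM in Cst7-low mice. Ly6c1 and Tek, a surface marker and the angiopoietin receptor of endothelium, were higher without overlap at 0.84 and 0.83. This list summed to 275 to 371 CPM in Cst7-high mice, 172 to 275 CPM in Cst7-low mice and 182 to 402 CPM in non-carriers, and 0 of the 10 genes were called in carriers over non-carriers. Of 13 genes of mural cells and fibroblasts 9 were positive and 0 lay apart, and their median of 0.34 became -0.03 without APP/PS1 mouse 3, 0.16 without APP/PS1 A2A mouse 1 and 0.12 without APP/PS1 A2A mouse 4.

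The 10 genes with the largest positive difference without overlap were Gm44090, Sec1, Gm38325, Gm15998, Cd163l1, Gm10030, Il20rb, Gm16075, Gm48482 and Csf2rb2, between 1.27 and 1.95. None of the 10 was called in carriers over non-carriers. Gm44090, Gm15998 and Gm10030 averaged 0.531, 0.538 and 0.544 CPM over the carriers, just above the 0.5 CPM minimum. They averaged 0.937, 0.813 and 0.797 CPM in Cst7-high mice and 0.133, 0.239 and 0.237 CPM in Cst7-low mice. They thus passed the minimum through the higher side, and a few reads weigh on the size of their differences. Csf2rb2, a beta chain of the interleukin 3 receptor, had 7.36, 6.41, 6.59 and 7.54 CPM in Cst7-high mice, against 2.90, 2.79, 3.87 and 2.02 CPM in Cst7-low mice. Il20rb, a chain of the interleukin 20 receptor, had 6.11, 11.9, 6.20 and 4.46 CPM in Cst7-high mice, against 2.57, 2.06, 3.24 and 2.5 CPM in Cst7-low mice. Sec1, a fucosyltransferase gene, had 5.72, 7.18, 7.17 and 4.79 CPM in Cst7-high mice, against 1.53, 2.32, 2.61 and 1.26 CPM in Cst7-low mice. In non-carriers Csf2rb2 ran over 2.37 to 7.12 CPM and Sec1 over 2.02 to 9.43 CPM, ranges close to those of the carriers. Il20rb ran over 1.97 to 5.35 CPM in non-carriers, under 3 of the 4 Cst7-high mice.

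**Figure D4:**
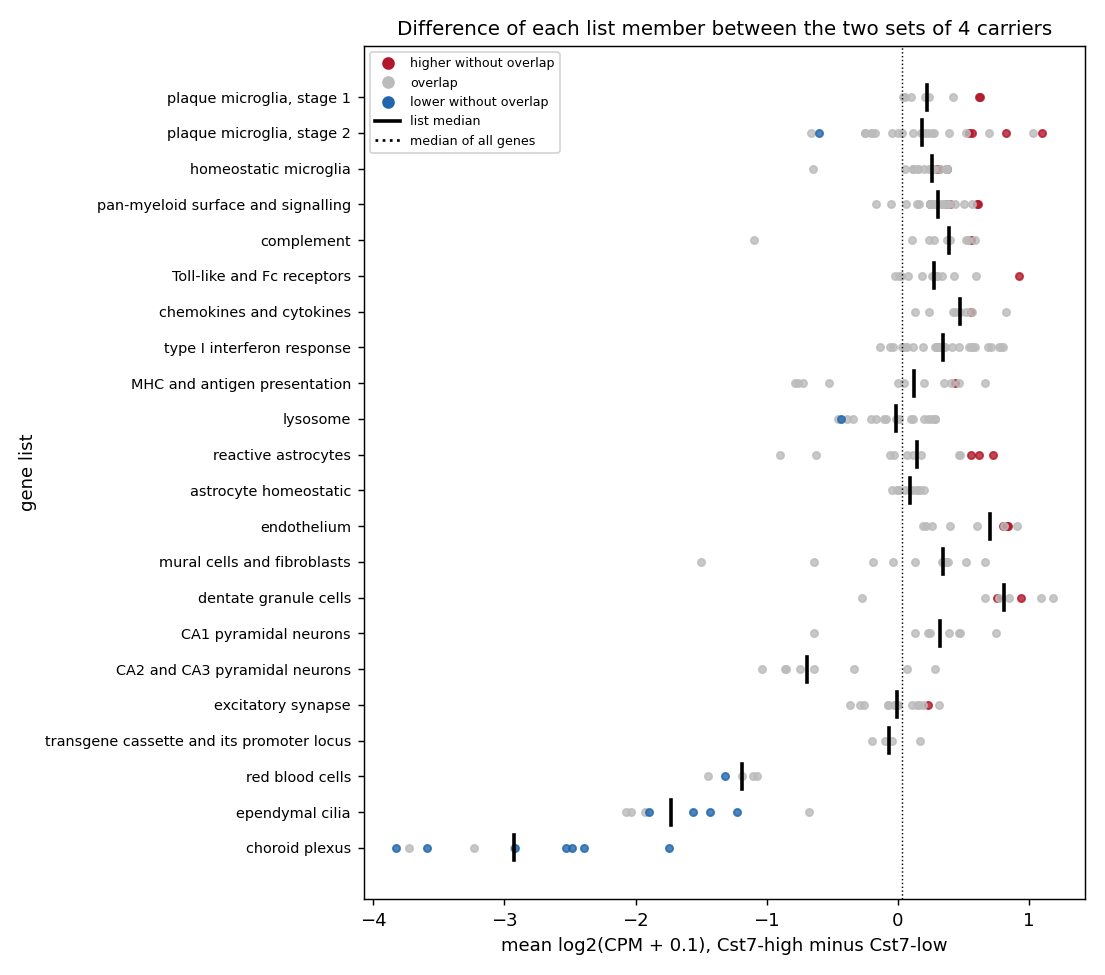
Difference of mean log2(CPM + 0.1), Cst7-high minus Cst7-low, of each measured member of 22 gene lists. Red points were higher and blue points lower without overlap, black bars are list medians and the dotted line is the median of all genes. The plaque, homeostatic, general myeloid, complement, receptor, chemokine and interferon lists have medians between 0.19, for the later plaque list with Cst7 included, and 0.47, the endothelial and dentate lists 0.71 and 0.81, and the choroid plexus list -2.92.

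The genes with the largest negative difference were Mfrp, Tmem72, Kcnj13, F5, Slc4a5, Kcne2, Tmprss11a, Clic6, Six3os1 and 1500015O10Rik, between -3.87 and -2.88. Most are known from the choroid plexus epithelium. All 10 genes of the choroid plexus list were negative and 7 were lower without overlap, with a median of -2.92, or -1.92 without APP/PS1 mouse 4. Kcnj13, an epithelial potassium channel, had 1.16, 0.384, 16.7 and 6.33 CPM in Cst7-high mice, against 17.7, 26.8, 35.4 and 81.7 CPM in Cst7-low mice. Ttr, the thyroxine carrier transthyretin, had 174, 27.8, 2474 and 873 CPM in Cst7-high mice, against 1999, 3495, 4827 and 9531 CPM in Cst7-low mice. For Kcnj13 the sides were apart by a small gap, and for Ttr APP/PS1 mouse 3 lay above APP/PS1 A2A mouse 2. APP/PS1 mouse 5 had a list sum of 681 CPM, inside the Cst7-high range, and when it took the place of any 1 Cst7-low mouse the genes lower without overlap numbered 175 to 268 in place of 639.

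Ependymal cells, which line the ventricles with motile cilia, followed the choroid plexus. All 8 genes were negative and 4 were lower without overlap, with a median of -1.73, or -1.13 without APP/PS1 mouse 4. Foxj1, the factor that switches on motile cilia, had 7.72, 3.01, 7.11 and 6.74 CPM in Cst7-high mice, against 18.9, 10.5, 8.99 and 34.95 CPM in Cst7-low mice. In non-carriers both tissues varied as widely, Foxj1 over 3.26 to 23.03 CPM and Kcnj13 over 0.712 to 69.0 CPM, and 0 genes of either list were called between carriers and non-carriers. With the choroid plexus slope subtracted, 993 genes were higher without overlap, 802 of them among the 1106, and 391 were lower, 315 of them among the 639. The part of ventricular tissue in the Cst7 ranking was not tested.

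**Figure D5:**
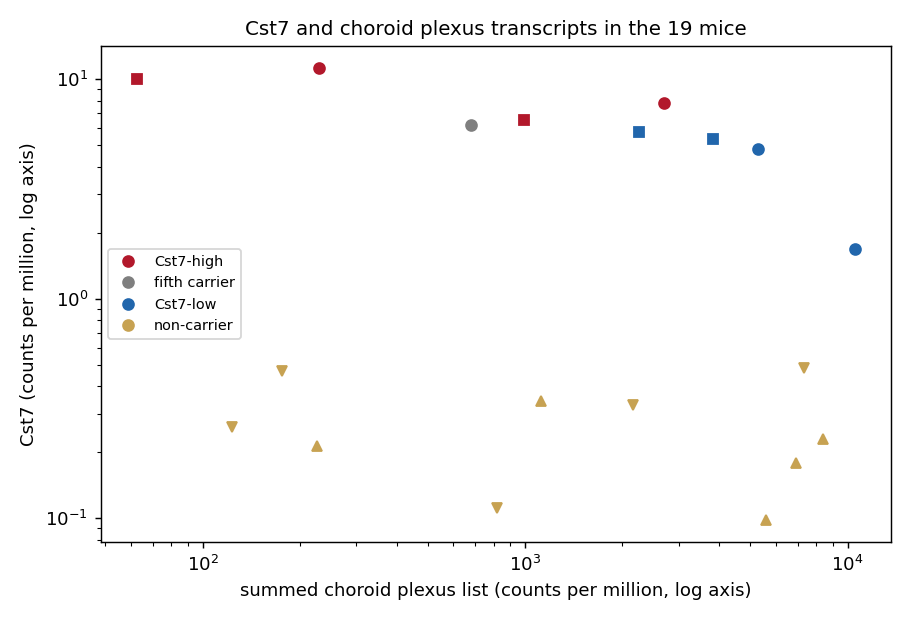
Summed CPM of the choroid plexus list (horizontal, log axis) against Cst7 CPM (vertical, log axis) in the 19 mice. Circles are APP/PS1 mice, squares APP/PS1 A2A mice, triangles WT mice (point up) and A2A mice (point down). The Cst7-high mice lie at 62.5 to 2703 CPM of choroid plexus transcripts, the Cst7-low mice at 2252 to 10520 CPM and the non-carriers at 123 to 8394 CPM with Cst7 under 0.5 CPM.

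Genes of the hippocampal subfields differed in direction. The 8 dentate granule cell genes summed to 509 to 862 CPM in Cst7-high mice, 264 to 571 CPM in Cst7-low mice and 298 to 694 CPM in non-carriers, and 7 were positive, with 2 higher without overlap and a median of 0.81. Prox1, the factor that specifies granule cells, had 150, 184, 130 and 132 CPM in Cst7-high mice, against 84.1, 63.5, 130 and 83.2 CPM in Cst7-low mice. Lct, the other member higher without overlap, differed by 0.94. Genes of CA2 and CA3 pyramidal cells had 2 positive of 8 and a median of -0.69, which was -0.26 without APP/PS1 mouse 3 and -0.33 without APP/PS1 A2A mouse 1. Amigo2, an adhesion molecule of CA2 and CA3, had 15.5, 10.8, 11.5 and 34.9 CPM in Cst7-high mice, against 37.8, 34.6, 23.7 and 39.1 CPM in Cst7-low mice. In it APP/PS1 A2A mouse 4 stood with the Cst7-low mice. CA1 pyramidal cell genes had 7 positive of 8 and a median of 0.32, with 0 higher or lower without overlap. Of these subfield lists 0 genes were called between carriers and non-carriers, and the part of dissection in these levels was not tested.

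Genes of the synapse and of nuclear-encoded respiratory complexes separated the sides at counts near the background. Of all genes 6.78% were higher and 3.92% lower without overlap. Of 15 genes of the excitatory synapse 7 were positive, with a median of -0.0046, and 1, the scaffold gene Dlg4, was higher without overlap at 0.23. Snap25, a protein of vesicle fusion, had 1999, 1634, 1779 and 2441 CPM in Cst7-high mice, against 2669, 2687, 2331 and 2323 CPM in Cst7-low mice. Respiratory complex I had 17 positive of 37 with a median of -0.01 and 2 lower without overlap, and complex IV 7 of 12 with a median of 0.04. The medians of these 3 lists changed sign with 1 mouse left out. Of 16 measured genes of the mitochondrial genome 15 were positive with overlap, with a median of 0.25. All 12 myelin and oligodendrocyte genes were negative, with overlap and a median of -0.17. The red blood cell list, of Alas2 and haemoglobin genes whose near-identical copies may split reads, had a median of -1.19 and summed to 6.10 to 16.2 CPM in Cst7-high mice and 13.2 to 99.1 CPM in Cst7-low mice, with 256 CPM in APP/PS1 mouse 5 and 5.26 to 33.5 CPM in non-carriers.

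The receptor genotype was tested on its labels. In the same edgeR fit 0 of 18529 genes were called in APP/PS1 A2A over APP/PS1 mice, with 532 at an unadjusted p under 0.05, and 0 by DESeq2, with 662. With no effect a share of about 0.05 would pass that limit, and the 532, and the 662 of 35640 genes, were below that share. The 532 became 804 of 18728 without APP/PS1 A2A mouse 1, still below it. Without APP/PS1 mouse 5 they became 1027 of 18480, just above it, and 0 were called in each. Cst7 differed by 0.13 on the log2 scale (SE 0.38) in that contrast. Adora2a differed by 1.30 (SE 0.60), with an unadjusted p of 0.0426 and an edgeR adjusted p of 0.9999. A p that misses the threshold does not show that the genotypes were alike.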

How the data were processed

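Total RNA of 19 hippocampi was sequenced as stranded mRNA libraries. The deposited table holds raw gene counts, which the authors made with STAR 2.5.3a on mm10 and HTSeq 0.6.1p1, beside log2 fold changes and p-values of their own DESeq2 1.16.1 comparisons, which were not used. Columns were matched to mice by the labels, and 0 per-sample columns were left unmapped.

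Counts were divided by column totals to give CPM. Carriers were ranked by Cst7 CPM, and the 4 highest were set against the 4 lowest, with no test, among genes with a mean of at least 0.5 CPM over the carriers (pseudocount 0.1 CPM). Labelled groups were tested with edgeR 4.0.16 (R 4.3.3; TMM, minimum count 10, quasi-likelihood test, 1 mean per genotype), called at adjusted p under 0.05 and absolute log2 fold change over 0.32, and with exact permutation tests in scipy 1.17.1. DESeq2 1.42.0, other scalings, filters, rankings and leaving out each mouse were alternatives. The edgeR script was tested on simulated data. Nothing in the labels ties mice to litters or batches.

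Members and gene lists were chosen with earlier results of these data known. Genes were named by a rule: the 10 largest differences without overlap in each direction, up to 4 largest of each list, the transgene genes and Adora2a. Others, including the genes called in carriers, were named after their values were seen. One gene of the transgene list is not reported here.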

Additional observations from a re-analysis of the deposited data

Results flagged for a closer look

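Within each labelled genotype, the mouse farthest from the rest was checked for Cst7 and for the summed CPM of 25 gene lists, 104 groups in all, of which chance sets apart about 1 in 20. There were 8 such mice and lists. APP/PS1 A2A mouse 1, a Cst7-high mouse, accounted for 4 of them. It had 95.99 CPM over the Toll-like and Fc receptors, against 67.5 to 72.2 CPM in its 3 genotype mates, and 42.33 CPM over the chemokines and cytokines, against 25.6 to 28.1 CPM. It had 1403 CPM over the reactive astrocyte genes, against 828 to 902 CPM, and 832.9 CPM over the CA1 pyramidal cell genes, against 667 to 684 CPM. APP/PS1 mouse 4, the carrier with the least Cst7, had 150.9 CPM over the ependymal genes, against 28.5 to 35.1 CPM among the remaining 4 of its genotype. The rest concern non-carriers. A2A mouse 4 had 7315 CPM over the choroid plexus genes, against 123 to 2156 CPM in the remaining A2A mice, and 3141 CPM over complex I, against 2528 to 2677 CPM. WT mouse 3 had 26.13 CPM over the red blood cell genes, against 5.26 to 9.79 CPM in the remaining WT mice.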

How the results depend on the processing

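The genes higher and lower without overlap numbered 1106 and 639. With 3 mice a side they numbered 3221 and 1957, of which fewer mice alone admit more. Ranking the mice by Itgax gave 202 lower, and ranking by Clec7a gave 449 higher and 129 lower, of which 67 and 18 were among the main ones. Leaving out 1 carrier and ranking the other 8 gave 649 to 1107 higher, the lowest without APP/PS1 A2A mouse 1 and then 681 without APP/PS1 mouse 1, and 175 to 1107 lower, with 1072 and 1107 without APP/PS1 A2A mouse 4 and APP/PS1 mouse 3. Alternatives chosen after seeing the data gave 1761 and 1189 within each genotype and 391 lower with the choroid plexus slope subtracted. TMM scaling gave 974 and 793. The cause of these shifts was not tested.

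DESeq2 called 82 genes in carriers over non-carriers in place of 35, and leaving out 1 mouse gave 25 to 50, the highest without APP/PS1 mouse 4. The Cst7 difference of APP/PS1 A2A over APP/PS1 mice ran from -0.590 to 1.787 CPM with 1 mouse left out, turning to -0.4745 without APP/PS1 A2A mouse 1 (p = 0.821, exact) and to -0.5904 without APP/PS1 mouse 4 (p = 0.714, exact). Of 300 list medians recomputed, 289 moved by less than the spread between mice. These include the medians of the 25 lists without APP/PS1 mouse 5, which could not move since that mouse is on neither side. They also include some that changed sign. The stage 1 plaque list had a median of 0.42 and the chemokine list 0.68 with 3 mice a side, the perivascular macrophage list -0.28 without APP/PS1 mouse 3 and the red blood cell list -2.17 to -0.04 with 1 carrier left out. No paired analysis was possible because the labels give the mice no shared replicate numbers. Genes with a mean under 0.5 CPM over the carriers were not described, since a few reads decide their order.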
